A study of Hypomesus transpacificus with 70 samples.

Results

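SLC12A2, SLC26A6 and ANO10a were followed in the gills of delta smelt (Hypomesus transpacificus), a small estuarine fish, after a change of salinity. The 3 genes were chosen by their symbols among the 448 genes and transcripts of the study's supplementary gene list. SLC12A2 had 2 isotigs there (isotig19205 and isotig24235), called transcripts in what follows, and 4 probes. Whether they are 2 transcripts or 2 parts of 1 was not tested. SLC26A6, whose symbol in that list is slc26a6l, had 2 probes on isotig17632, and ANO10a had 1 probe on isotig16723. The reference annotation of the species in RefSeq (assembly fHypTra1) held 1 gene each with the symbols slc12a2, slc26a6l and ano10a. The list was itself selected by the study on a salinity effect or a salinity by exposure time interaction in these same fish, so values of those 2 effects describe the genes and are not independent evidence. Exposure time averaged over salinities and the comparison with pre-experiment fish were not the effects selected on. Both still use the exposed fish that entered the selection, so they are not free of it.

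The gill is the main site of ion exchange in teleost fish, and most of that exchange takes place in ionocytes, epithelial cells rich in mitochondria. In dilute water ionocytes take up sodium and chloride, and in seawater they secrete both. SLC12A2 encodes NKCC1, a cotransporter of sodium, potassium and chloride that in seawater ionocytes brings chloride into the cell across the basolateral membrane. SLC26A6 encodes an anion exchanger that moves chloride against bicarbonate and other anions such as sulfate and oxalate. ANO10a encodes anoctamin 10, a member of the family that holds the calcium-activated chloride channels. In mammals anoctamin 10 is a membrane protein of the endoplasmic reticulum with phospholipid scramblase activity.

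Prespawning adult fish raised in a hatchery were held at 2.3 ppt and then brought gradually to 0.4, 2.3, 6, 12 or 18 ppt, and gills were taken when the target salinity was reached (0 h) and 18 and 42 h later. The 2.3 ppt fish were handled in the same way without a change of salinity and served as handling controls, with 6 fish at each exposure time. The other salinities had 4 fish at each time, except 3 at 12 ppt at 18 h, and 5 fish were taken at 2.3 ppt before the experiment, which gave 70 fish in 16 groups. No fish carried a transgene or a drug treatment, and salinity, exposure time and handling were the only differences between groups that the labels or methods give. The labels write 0.4 ppt as 0 and 2.3 ppt as 2 and count hours from the start of the salinity change, so that 0 h appears as 6 and 42 h as 48. Fish of a salinity and time outside the control shared a container, so container and treatment cannot be told apart and p-values measure the spread between fish. RNA came from whole gill, in which fewer cells of a type and less RNA per cell cannot be told apart.

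The probes are shown because they fix what each level stands for. Each was 60 bases long, with a GC content between 43.3 and 55%. The first 2 probes of SLC12A2 share 49 bases, marked in capitals, and so are nearly the same measurement, whereas the other 2 lie on the second transcript and share no such stretch with them.
SLC12A2 isotig19205, probe 20645: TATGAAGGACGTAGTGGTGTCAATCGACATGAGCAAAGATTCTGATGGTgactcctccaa
SLC12A2 isotig19205, probe 20646: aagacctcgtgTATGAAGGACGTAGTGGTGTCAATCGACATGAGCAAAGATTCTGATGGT
SLC12A2 isotig24235, probe 26574: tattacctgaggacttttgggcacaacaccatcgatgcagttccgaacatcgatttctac
SLC12A2 isotig24235, probe 26575: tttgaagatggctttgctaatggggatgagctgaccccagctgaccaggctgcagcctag
SLC26A6 isotig17632, probe 18483: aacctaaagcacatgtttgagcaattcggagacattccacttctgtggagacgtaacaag
SLC26A6 isotig17632, probe 18484: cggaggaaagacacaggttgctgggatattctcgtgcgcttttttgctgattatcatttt
ANO10a isotig16723, probe 17132: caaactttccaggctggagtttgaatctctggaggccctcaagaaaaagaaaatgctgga

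All 7 probes were well above background on all 70 arrays and none was saturated. The SLC26A6 probes were bright, with median signals of 1783 and 2289, at percentiles 96.0 and 96.8 of all probes. The SLC12A2 probes had medians of 253 and 341 on isotig19205 and of 97.5 and 137 on isotig24235. The ANO10a probe was the dimmest, with a median of 88.3. Probe 26574 reached a signal of 100 on 32 arrays and the ANO10a probe on 27, both short of the 50% of arrays required of other probes, and both were kept as members. Over the 70 fish the probes of 1 transcript followed each other, with Pearson's r of 0.99 for the overlapping pair, 0.88 for the other SLC12A2 pair and 0.99 for the SLC26A6 pair. Probes of different SLC12A2 transcripts correlated at 0.70 to 0.81. In what follows a level is log2 of the quantile-normalized processed signal, averaged over the probes of a gene within each fish, and differences are between log2 levels. A difference was called when its p-value from limma's moderated test was at or under 0.05 after Benjamini-Hochberg adjustment across every unit tested, a unit being a gene or a single probe.

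The arrays differed in brightness. The median signal of an array ran from 12.9 to 131, and between 62.0 and 90.8% of its probes were well above background. The 70 arrays lay on 18 slides, 54 of them scanned on 1 day and 16 on another. The markers of gill ionocytes and epithelium were all measured. No processed signal was at 0, the lowest on any array being 0.75, so this does not show that those cells were present.

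SLC26A6 had the widest range of the 3 genes, from 6.03 to 12.80, and its 3 lowest levels were all in 18 ppt at 42 h. In that group the 4 fish had levels of 6.03, 6.62, 7.79 and 9.82. The 6 handling controls at 42 h had a lowest level of 9.74, a median of 11.03 and a highest of 11.37. The 3 lowest of these fish were below all other fish of the series, while the fish at 9.82 was just above the lowest control, so the groups overlapped in 1 fish. The mean was 7.57 ± 1.67 (SD, n = 4) in 18 ppt against 10.84 ± 0.61 (SD, n = 6) in the controls, a 9.69-fold lower level (log2 difference -3.28 ± 0.52 SE, adjusted p = 0.000383, limma). An exact two-sided permutation test over the 10 fish gave p = 0.00952, where the smallest p that 210 splits allow is 0.00476. In this comparison 0.0914% of all units tested were called, 12 lower and 1 higher.

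**Figure D1:**
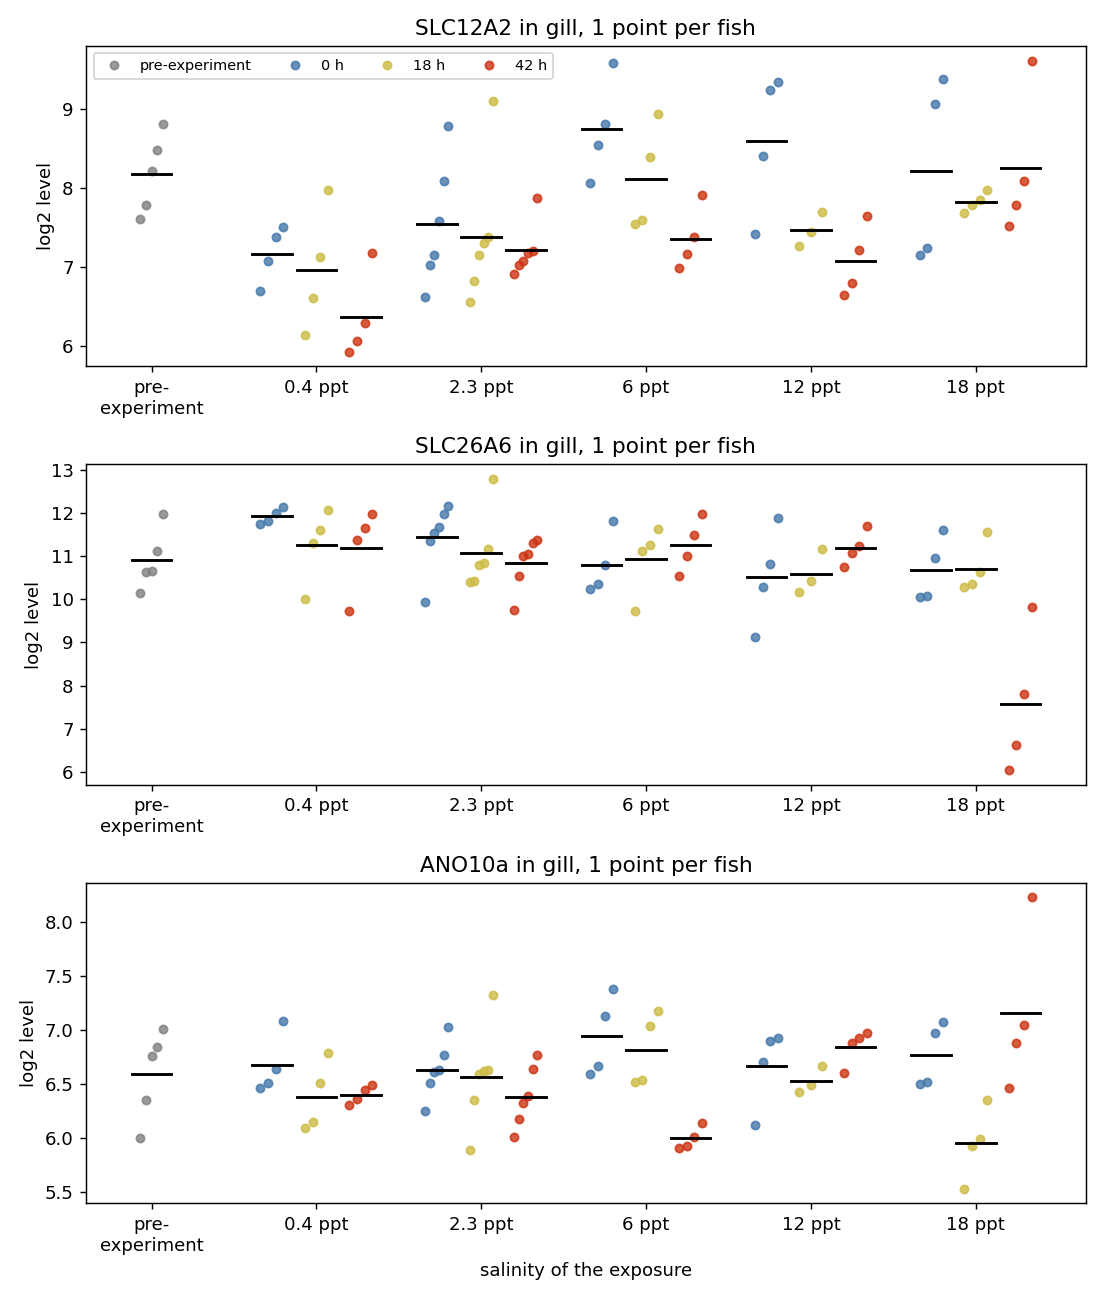
Log2 level (y axis) of SLC12A2, SLC26A6 and ANO10a in each of the 70 fish by salinity and exposure time (x axis); points are fish and bars the group means. The 18 ppt fish at 42 h lie between 6.03 and 9.82 for SLC26A6, while the control fish at that time lie between 9.74 and 11.37.

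At the earlier exposure times the SLC26A6 levels in 18 ppt overlapped those of the controls. At 0 h the 4 fish had levels of 10.06, 10.07, 10.96 and 11.60, against a range of 9.94 to 12.17 and a median of 11.62 in the 6 controls. At 18 h they had 10.28, 10.37, 10.65 and 11.58, against 10.41 to 12.80 with a median of 10.83. At 18 h the fish at 10.28 and 10.37 were below the lowest control. Neither difference was called (-0.78 ± 0.52 SE at 0 h, adjusted p = 0.754, and -0.36 ± 0.52 SE at 18 h, adjusted p = 1, limma). In each of these comparisons 0.00703% of all units were called. Within 18 ppt the level fell by 3.11 on the log2 scale from 0 to 42 h (8.63-fold lower, SE 0.57, adjusted p = 0.00595) and was 8.88-fold lower at 42 h than at 18 h (-3.15 ± 0.57 SE, adjusted p = 0.00339), where 1.09 and 1.17% of all units were called. The test of the difference itself, the 42 h effect of 18 ppt minus its 0 h effect, gave -2.50 ± 0.74 SE with an unadjusted p of 0.00133 and an adjusted p of 1. That test called 0 units by limma, with 510 at an unadjusted p under 0.05. The 18 ppt effect on SLC26A6 was therefore past the threshold at 42 h and not at 0 h, without a called difference between the times.

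The array brightness of the 18 ppt fish at 42 h ran from 15.4 to 103.7, and that of their controls from 29.2 to 58.8. The SLC26A6 levels of 6.03 and 6.62 were on arrays with median signals of 54.5 and 103.7. With array brightness as a covariate the difference at 42 h was -3.26 (adjusted p = 9.23e-05, limma). By detector setting it was -4.37 at the lower setting (1 fish against 2) and -2.99 at the higher (3 against 4). By scan day it was -2.72 (3 against 5) and -5.03 (1 against 1). On the 2 slides that held both groups it was -5.03, the same pair of fish as on the second scan day, and -1.55. All were below 0, and leaving out any 1 of the 70 fish gave values from -4.03 to -2.77, all of them called. With the replicate number in the labels as a block it was -2.59 with an adjusted p of 0.145. The numbers 5, 6 and 7 of the 18 ppt fish were carried by no control at 42 h. Block and salinity are therefore partly confounded in this comparison.

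Across salinities the mean SLC26A6 level, averaged over the 3 exposure times, was 11.46 in 0.4 ppt, 11.12 in 2.3 ppt, 11.00 in 6 ppt, 10.77 in 12 ppt and 9.65 in 18 ppt. No neighbours in this order were called by limma, but few units of any kind were called in these comparisons. The share of all units was 0.443% between 6 and 12 ppt and 0% between each other pair. The gap between 12 and 18 ppt was -1.12 ± 0.34 SE (unadjusted p = 0.00176, adjusted p = 0.666, limma). Tukey's comparison within the gene, the study's post hoc method, gave an adjusted p of 0.0211 there and of 0.00233 between 6 and 18 ppt (-1.35). The 18 ppt level was below that of 0.4 ppt by 3.50-fold (-1.81 ± 0.33 SE, adjusted p = 0.00142), where 0.253% of all units were called. It was below the control by 2.77-fold (-1.47 ± 0.30 SE, adjusted p = 0.0134), with 10 of 12 fish below the control mean of their time. In that comparison 0.112% of units were called. Against the control the differences were 0.34 in 0.4 ppt, -0.12 in 6 ppt and -0.35 in 12 ppt, none of them called (adjusted p from 0.68 to 0.873). There 0, 0 and 0.0351% of all units were called. The salinity effect over all 5 salinities had an adjusted p of 0.00646 by limma's F-test, where 0.78% of units were called, and the interaction an adjusted p of 0.0719, where 0.0563% were called.

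These averages rest on the 42 h fish. The difference of 18 ppt from the control over all times was -1.30 with an adjusted p of 0.0666 without the 18 ppt fish at 6.03. Without the 6 arrays whose median signal was under 27.2 it was -1.43 (adjusted p = 0.0601). All comparisons with 2.3 ppt at a given time share the same control fish.

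**Figure D2:**
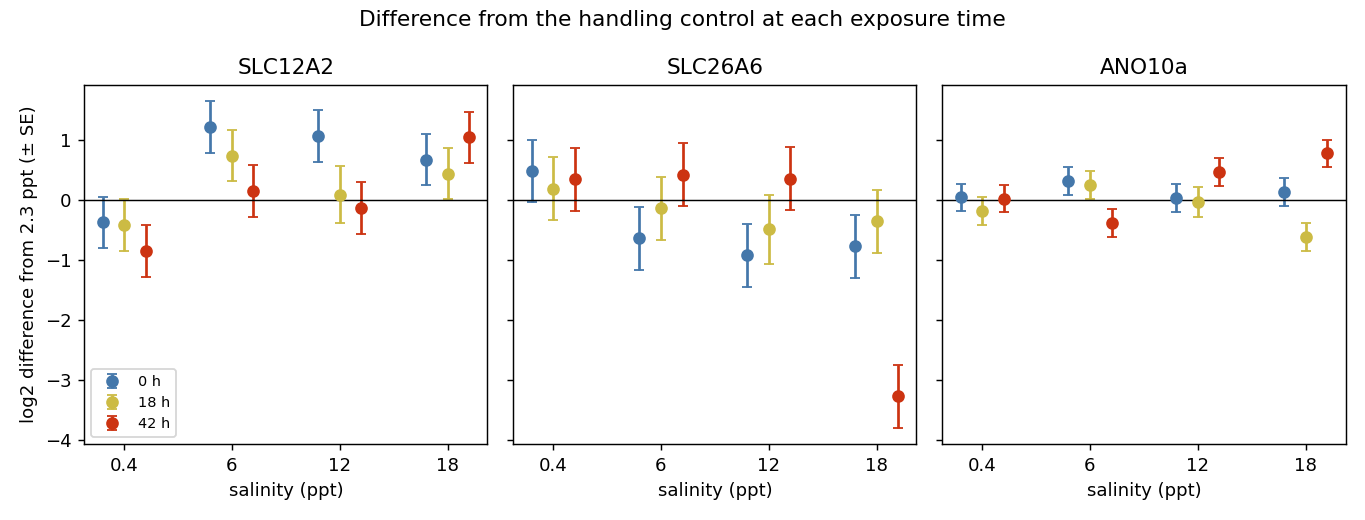
Log2 difference from the 2.3 ppt handling control at the same exposure time (y axis, mean ± SE of the fit) for 4 salinities (x axis), with a colour for each exposure time. SLC26A6 in 18 ppt at 42 h stands at -3.28, and the other 11 differences of that gene lie between -0.92 and 0.48.

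SLC12A2 was lowest in 0.4 ppt and higher in 6 and 18 ppt. Averaged over the exposure times its mean level was 6.83 in 0.4 ppt, 7.38 in 2.3 ppt, 7.71 in 12 ppt, 8.08 in 6 ppt and 8.10 in 18 ppt. The level in 6 ppt was 2.38-fold that in 0.4 ppt (1.25 ± 0.27 SE, adjusted p = 0.00903, limma) and the level in 18 ppt 2.41-fold (1.27 ± 0.27 SE, adjusted p = 0.014). In these comparisons 2.63 and 0.253% of all units were called. The 12 ppt fish lay between, at 0.89 ± 0.28 SE above 0.4 ppt, which was not called (adjusted p = 0.791), although Tukey's comparison within the gene gave an adjusted p of 0.0285. Between 12 and 0.4 ppt 0.0211% of all units were called. No neighbours in the order of levels differed past the threshold, in comparisons that called 0 to 0.443% of all units. Of the fish in 0.4 ppt, 11 of 12 were below the control mean of their time, and in 6 and in 18 ppt 10 of 12 were above it.

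The handling control lay between 0.4 ppt and the other salinities in this order, and no salinity was called against it. Over all times the differences were -0.55 ± 0.25 SE in 0.4 ppt, 0.70 ± 0.25 in 6 ppt, 0.34 ± 0.26 in 12 ppt and 0.72 ± 0.25 in 18 ppt, with adjusted p from 0.395 to 0.63 by limma. The unadjusted p-values were 0.0307, 0.00675, 0.196 and 0.00554 in the same order. Few units of any kind were called here, at 0, 0, 0.0351 and 0.112% of all units. The salinity F-test was past the threshold (adjusted p = 0.0143) and the interaction was not (adjusted p = 0.492).

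By time, the 6 ppt fish at 0 h had SLC12A2 levels of 8.07, 8.54, 8.81 and 9.58 and the 12 ppt fish 7.42, 8.41, 9.24 and 9.34. The 6 controls at 0 h ran from 6.62 to 8.79 with a median of 7.36. All fish of both groups were above the control median, though the ranges overlapped. Against the control mean of 7.54, 1 of the 12 ppt fish was below. The differences were 1.21 ± 0.43 SE (adjusted p = 0.122, limma) and 1.06 ± 0.43 SE (adjusted p = 0.113). The exact two-sided permutation tests gave p = 0.0381 and 0.0952 without adjustment. In these comparisons 0 and 1.93% of all units were called. Both differences were called with array weights, and that in 12 ppt with slide as a fixed block (1.47, adjusted p = 0.0274, limma). Of the 70 fits that left out 1 fish, 2 called the difference in 6 ppt and 2 that in 12 ppt. At 42 h the 18 ppt fish had 7.51, 7.79, 8.09 and 9.62, and the 0.4 ppt fish 5.92, 6.06, 6.28 and 7.18. The 6 controls at 42 h ran from 6.91 to 7.88 with a median of 7.13. All 4 fish in 18 ppt were above the control mean and all 4 in 0.4 ppt below it, each group overlapping the controls. The differences were 1.04 ± 0.43 SE (adjusted p = 0.288, limma; exact permutation p = 0.0143) and -0.85 ± 0.43 SE (adjusted p = 1; exact permutation p = 0.0238). The highest of the 18 ppt levels was on the dimmest array of its group, with a median signal of 15.4.

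Averaged over salinities SLC12A2 was 1.74-fold lower at 42 h than at 0 h (-0.80 ± 0.20 SE, adjusted p = 0.00117, limma). Many genes differed between these times, with 40.9% of all units called in this comparison. The F-test over the 3 times gave an adjusted p of 0.00447, where 35.5% were called. In 6 ppt the 4 fish at 42 h had levels of 6.98, 7.16, 7.38 and 7.91, all under the lowest 0 h fish at 8.07, and the mean was 2.63-fold lower (-1.39 ± 0.47 SE, adjusted p = 0.03). In 12 ppt they had 6.64, 6.80, 7.21 and 7.65, against 7.42 to 9.34 at 0 h, and the mean was 2.89-fold lower (-1.53 ± 0.47 SE, adjusted p = 0.0142). In those salinities 22.3 and 26% of all units were called between the same times, and the share without overlap was not counted. The change from 0 to 42 h was not called in 0.4 ppt (-0.80, adjusted p = 0.359), in the handling controls (-0.33, adjusted p = 0.671) or in 18 ppt (0.04, adjusted p = 0.981). There 5.71, 9.43 and 1.09% of all units were called. The change in 6 ppt minus that of the controls was -1.06 ± 0.61 SE (adjusted p = 0.322, limma), and in 12 ppt -1.20 ± 0.61 SE (adjusted p = 0.241). Neither was called, where 0 and 2.23% of all units were, so a fall particular to 6 and 12 ppt is not shown.

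Brightness moved with the fall in 6 ppt. The median array had a signal of 33.8 in 6 ppt at 0 h and of 78.8 at 42 h, compared with 38.4 and 47.8 in 12 ppt. With brightness as a covariate the SLC12A2 difference in 6 ppt was -0.72 (adjusted p = 0.318, limma), in 12 ppt -1.16 (adjusted p = 0.0249) and over all salinities -0.65 (adjusted p = 0.0012). Within the detector settings the 6 ppt differences were -1.23 and -1.55. The 6 ppt call was also lost without any 1 of 5 of its 8 fish, at values from -1.40 to -1.12, and the 12 ppt call without either of the 2 highest fish at 0 h (-1.32 and -1.28). The 18 ppt to 0.4 ppt difference was 1.12 (adjusted p = 0.0575) without the 18 ppt fish at 9.62 and 0.98 (adjusted p = 0.188) without the 6 dim arrays, and 1.15 (adjusted p = 0.00224) with the covariate.

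The 2 SLC12A2 transcripts moved in the same direction in these comparisons. From 0.4 to 6 ppt the difference was 1.47 ± 0.39 SE for isotig19205 (adjusted p = 0.0294, limma) and 1.03 ± 0.20 SE for isotig24235 (adjusted p = 0.00351). From 0.4 to 18 ppt it was 1.42 ± 0.39 SE (adjusted p = 0.109) and 1.12 ± 0.20 SE (adjusted p = 0.000662). From 0 to 42 h isotig19205 fell by 1.05 (adjusted p = 0.00277) and isotig24235 by 0.56 (adjusted p = 0.00191). The difference between the transcripts within a fish did not separate any salinity from the control over all times, with shifts of 0.02, 0.46, 0.39 and 0.32 in 0.4, 6, 12 and 18 ppt and Benjamini-Hochberg adjusted p of 0.953, 0.373, 0.373 and 0.373 over the 4 permutation tests. The widest of the 12 comparisons by time was 1.36 in 6 ppt at 0 h (exact permutation p = 0.019, adjusted over the 12, 0.229).

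**Figure D3:**
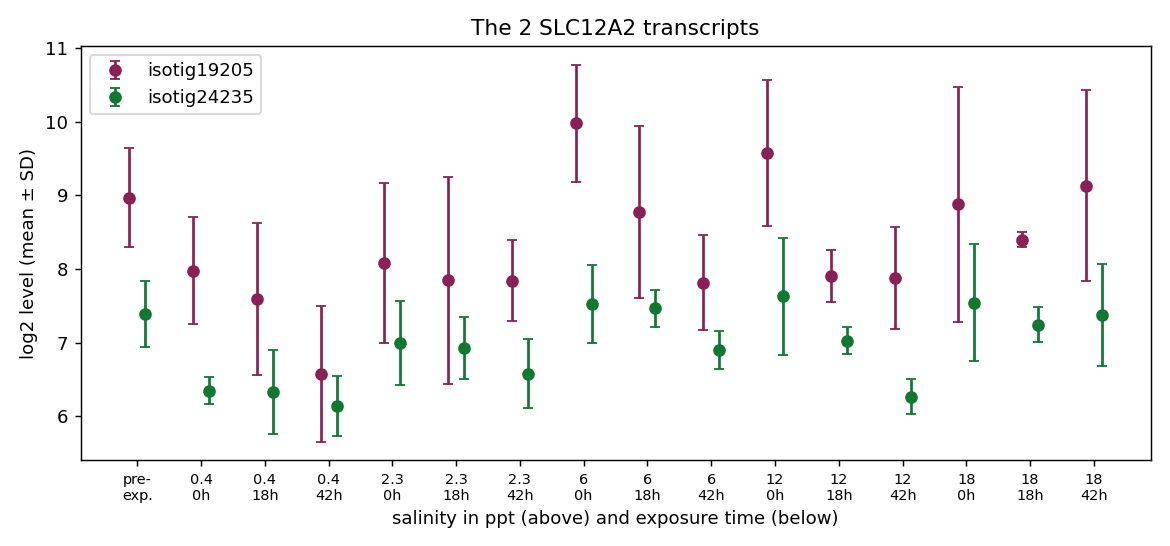
Mean log2 level ± SD over fish (y axis) of the SLC12A2 transcripts isotig19205 and isotig24235 in the 16 groups (x axis). Both have their lowest mean in 0.4 ppt at 42 h, at 6.58 for isotig19205 and 6.14 for isotig24235.

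ANO10a differed little between salinities. Its mean level over the exposure times was 6.49 in 0.4 ppt, 6.53 in 2.3 ppt, 6.59 in 6 ppt, 6.62 in 18 ppt and 6.68 in 12 ppt. The differences from the control were -0.04, 0.06, 0.09 and 0.15 in 0.4, 6, 18 and 12 ppt, with SE of 0.13 to 0.14 and adjusted p from 0.69 to 0.96 by limma. In these comparisons 0, 0, 0.112 and 0.0351% of all units were called. The salinity F-test had an adjusted p of 0.821, the time F-test 0.0928 and the interaction 0.0718. The sign in 0.4 ppt turned with 75th percentile scaling, with 2 of the other filters and with the authors' values, that in 6 ppt with the normexp correction and with slide or replicate number as a block, and that in 18 ppt without the dim arrays.

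Within 18 ppt ANO10a was low at 18 h and high at 42 h. At 18 h the 4 fish had levels of 5.53, 5.92, 5.99 and 6.35, against 5.89 to 7.33 and a median of 6.61 in the 6 controls. At 42 h they had 6.46, 6.88, 7.05 and 8.23, against 6.01 to 6.77 and a median of 6.35. All 4 fish were below the control mean at 18 h and all 4 above it at 42 h, with overlap at both times. The level at 42 h was 2.31-fold that at 18 h (1.21 ± 0.25 SE, adjusted p = 0.016, limma), where 1.17% of all units were called. The step from 0 to 18 h was not called (-0.82 ± 0.25 SE, adjusted p = 0.378), where 0% of all units were. Against the controls the differences were -0.62 ± 0.23 SE at 18 h (adjusted p = 0.729; exact permutation p = 0.0667) and 0.77 ± 0.23 SE at 42 h (adjusted p = 0.163; exact permutation p = 0.0238).

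The 42 h fish in 6 ppt had ANO10a levels of 5.91, 5.93, 6.01 and 6.14, under all 4 fish at 0 h, which had 6.60, 6.67, 7.13 and 7.38. The mean was 1.93-fold lower (-0.95 ± 0.25 SE, adjusted p = 0.00893, limma). Between these times 22.3% of all units were called in 6 ppt, and the share without overlap was not counted. Against 18 h the difference was -0.82 ± 0.25 SE (adjusted p = 0.0867). In 12 ppt at 42 h the levels were 6.61, 6.88, 6.93 and 6.97, most of them above the highest control. The differences from the controls at 42 h were 0.46 ± 0.23 SE in 12 ppt (adjusted p = 0.501, limma; exact permutation p = 0.0286) and -0.39 ± 0.23 SE in 6 ppt (adjusted p = 1; exact permutation p = 0.0381).

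The ANO10a results moved with brightness too. Arrays in 18 ppt had a median signal of 76.8 at 18 h and of 47.3 at 42 h. With brightness as a covariate the rise in 18 ppt was 0.96 (adjusted p = 0.0423, limma) and the fall in 6 ppt -0.61 (adjusted p = 0.107). The rise was 0.85 (adjusted p = 0.102) without the fish at 8.23, which was on the array with a median of 15.4, and 1.07 (adjusted p = 0.0911) without the fish at 5.53. The fall in 6 ppt was -0.80 (adjusted p = 0.0571) without 1 of the 0 h fish. These are values of a single probe with a signal under 100 on most arrays, and without the filter on dim probes neither call was kept (0.81, adjusted p = 0.0778, and -0.57, adjusted p = 0.053).

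SLC26A6 averaged over salinities was lower at 42 h than at 0 h (-0.67 ± 0.25 SE, adjusted p = 0.0264, limma), where 40.9% of all units were called. Its F-test over the 3 times was not past the threshold (adjusted p = 0.0657). Without the lowest 18 ppt fish at 42 h the difference was -0.57 (adjusted p = 0.0611), and it was -0.57 and -0.58, not called, without 1 fish of 0.4 ppt at 42 h or 1 of 12 ppt at 0 h. In 6 and 12 ppt the 42 h means were 11.26 and 11.20, above the 0 h means of 10.81 and 10.53.

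Before the experiment the 5 fish at 2.3 ppt had SLC12A2 levels of 7.61, 7.78, 8.22, 8.49 and 8.82. SLC26A6 was at 10.15, 10.64, 10.66, 11.13 and 11.98 in them and ANO10a at 6.00, 6.35, 6.76, 6.85 and 7.01. None of the 3 genes was called at 0 h in any salinity against these fish, in comparisons that called 0 to 0.499% of all units. With array weights SLC12A2 was called there in 0.4 and 2.3 ppt. In the handling controls at 0 h the differences from the pre-experiment fish were -0.64 ± 0.40 SE for SLC12A2 (adjusted p = 0.485, limma) and 0.54 ± 0.49 SE for SLC26A6 (adjusted p = 0.611). In 0.4 ppt they were -1.02 ± 0.45 SE (unadjusted p = 0.0267, adjusted p = 0.332) and 1.02 ± 0.54 SE (adjusted p = 0.388). The 0.4 ppt fish at 0 h had SLC26A6 levels of 11.76 to 12.14, the narrowest group of that gene.

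The 3 genes also varied from fish to fish within groups, as deviations from the group means. Over the 70 fish SLC12A2 and ANO10a moved together (r = 0.63, rho = 0.57) and SLC12A2 and SLC26A6 moved apart (r = -0.46, rho = -0.42). For the first pair the permutation p was 1e-05 for both, the smallest that 100000 permutations can give, and for the second r had a p of 0.00012. Array brightness went with SLC12A2 (r = -0.61, rho = -0.63) and with ANO10a (r = -0.59, rho = -0.57), both at p = 1e-05, and more weakly with SLC26A6 (r = 0.30, rho = 0.32, permutation p = 0.013 for r). SLC26A6 and ANO10a had r = -0.26 and rho = -0.27, with p = 0.028 for r. These were 6 relations, and after Benjamini-Hochberg adjustment the 3 smallest p-values of r became 2e-05 and the others 0.00018, 0.015 and 0.028. All p-values of these relations treat the 70 deviations as independent, although 54 residual degrees of freedom remained after the group means were fitted. They are therefore too small, and the p of 0.028 for SLC26A6 and ANO10a is not taken as evidence of a relation.

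Without the 2 fish farthest on the x axis the 3 genes paired at r = 0.54 (SLC12A2 and ANO10a), -0.48 (SLC12A2 and SLC26A6) and -0.20 (SLC26A6 and ANO10a), and brightness went with SLC12A2 at -0.59, with ANO10a at -0.51 and with SLC26A6 at 0.33. Within the 2 scan days brightness and SLC12A2 had r = -0.58 and -0.69, brightness and ANO10a -0.63 and -0.67, and brightness and SLC26A6 0.20 and 0.61. SLC12A2 and SLC26A6 had -0.48 and -0.41 within scan days, and SLC12A2 and ANO10a 0.64 and 0.75. SLC26A6 and ANO10a had -0.24 and -0.37. All signs held within days and within detector settings. The part of brightness in the relations between genes was not tested.

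**Figure D4:**
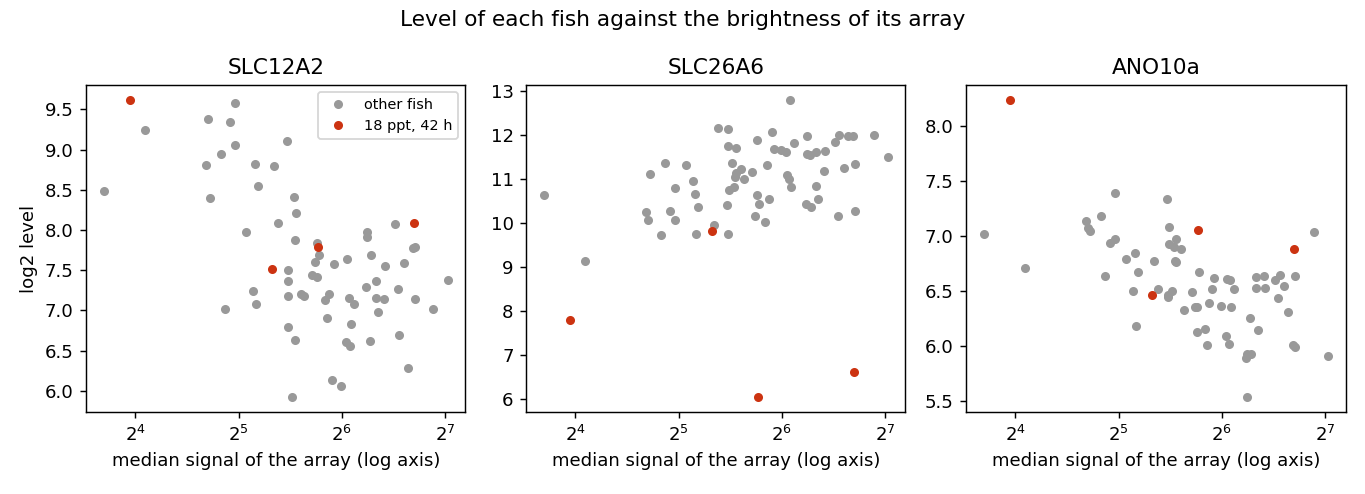
Log2 level of each gene (y axis) against the median signal of the array (x axis, log axis) for the 70 fish, with the 4 fish of 18 ppt at 42 h in red. SLC12A2 and ANO10a were lower on brighter arrays, while the SLC26A6 levels of 6.03 and 6.62 were on arrays with median signals of 54.5 and 103.7.

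From the supplementary gene list 10 other genes of ion transport were chosen by role. They were the sodium pump subunits atp1a1a.1, atp1a1a.4, atp1b1b and a gamma-like subunit (ATP1G1-like), the potassium channels kcnj1b and KCNJ16, the anoctamin ano9a, a carbonic anhydrase 9-like gene (CA9-like), the proton pump subunit atp6v0b and the ammonia channel rhcga. Since the study selected the list on salinity in these fish, their counts are not independent evidence either. The 10 are a selection and not every ion transport gene. The magnesium transporter NIPAL2, which the paper names, is not among them. Over all times 3 of the 10 fell in 18 ppt against the control and none rose, namely atp1a1a.4 (-1.51 ± 0.26 SE, adjusted p = 0.000988, limma), atp1a1a.1 (-0.73 ± 0.16 SE, adjusted p = 0.0345) and CA9-like (-0.60 ± 0.12 SE, adjusted p = 0.0134). In this comparison 0.112% of all units were called. The median of the 10 was -0.59, beside -0.03 over all units.

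At 42 h 4 of the 10 fell in 18 ppt, and 9 were below 0, with a median of -0.82 beside -0.03 over all units, of which 0.0914% were called. The pump subunit atp1a1a.4 had levels of 9.79, 10.54, 12.97 and 13.69 in the 18 ppt fish and of 14.06 to 14.73 in the 6 controls, with no overlap (-2.69 ± 0.45 SE, adjusted p = 0.000559, limma). KCNJ16 had 6.05, 6.49, 7.20 and 7.50 against 7.89 to 9.10, again apart (-1.84 ± 0.41 SE, adjusted p = 0.0489). The share of all units without overlap was not counted. The others called were atp1a1a.1 and ATP1G1-like, both at -1.25 with an adjusted p of 0.0489. Only kcnj1b was above 0 (0.96 ± 0.42 SE, adjusted p = 0.31). The fish with the lowest SLC26A6 level also had the lowest atp1a1a.4 and atp1a1a.1 levels of its group, and another fish had the lowest KCNJ16 level.

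Against 0.4 ppt, the comparison in which SLC12A2 was called, kcnj1b rose in both 6 ppt (1.00 ± 0.26 SE, adjusted p = 0.0296, limma) and 18 ppt (1.59 ± 0.26 SE, adjusted p = 0.000188). In each of these salinities 3 of the 10 genes fell, atp1a1a.1, atp1a1a.4 and CA9-like, and the median of the 10 was -0.41 and -0.72, beside 0.00 and -0.01 over all units, of which 2.63 and 0.253% were called. With exposure time 2 of the 10 rose from 0 to 42 h over all salinities, ATP1G1-like (0.64 ± 0.13 SE) and rhcga (0.60 ± 0.22 SE). In the same comparison 3 fell, atp1a1a.1 (-0.47), atp1b1b (-0.67) and ano9a (-0.26), and 40.9% of all units were called, a share close to the 5 of 10 here. By F-test 5 of the 10 were called for salinity, beside 0.78% of all units, and 5 for time, beside 35.5%.

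**Figure D5:**
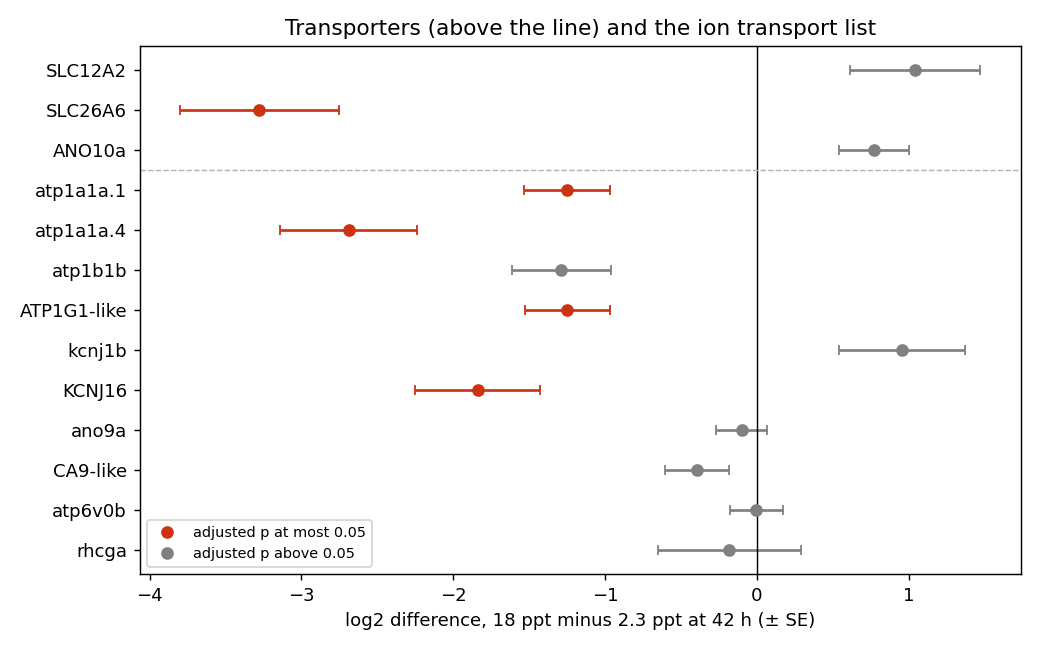
Log2 difference between 18 ppt and the 2.3 ppt handling control at 42 h (± SE of the fit) for the 3 transporters and the 10 chosen ion transport genes. SLC26A6 at -3.28 and atp1a1a.4 at -2.69 lie farthest below 0, and SLC12A2 at 1.04, kcnj1b at 0.96 and ANO10a at 0.77 lie above it.

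The summed level of 7 markers of ionocytes and gill epithelium (5 of them in the ion transport list, with aqp3b and cldna) was 12.57 to 14.66 in the 18 ppt fish at 42 h and 14.84 to 15.31 in the controls, without overlap. All 7 come from the supplementary list that the study selected on salinity in these fish, so this separation is not independent evidence. The share of all units without overlap was not counted. In the controls this sum is mostly that of atp1a1a.4, at 14.06 to 14.73, and is not independent of that gene. In the 18 ppt fish at 42 h atp1a1a.4 was not always the largest part. Replicate 1 had 9.79 for atp1a1a.4 and 11.93 for rhcga, and replicate 5 had 10.54 for atp1a1a.4 and 11.24 for atp1b1b. Of the 7, atp1a1a.1 and atp1a1a.4 were called lower and none higher, with -1.29 for atp1b1b (adjusted p = 0.103, limma), -0.18 for rhcga (adjusted p = 0.865), 0.96 for kcnj1b (adjusted p = 0.31), -0.79 for aqp3b (adjusted p = 0.355) and -0.37 for cldna (adjusted p = 0.658). The 2 genes taken as leukocyte markers, BX950862.1 and CR626941.1, summed to 8.98 to 9.49 and 9.03 to 10.31, and neither was called. Their means went opposite ways, 7.72 in 18 ppt against 8.40 in the controls for BX950862.1 and 8.59 against 8.41 for CR626941.1. Whether they mark leukocytes in this gill was not tested. The part of these cell markers in the SLC26A6 difference was not tested.

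The likeness of other genes was measured by Pearson's r over the 15 means of salinity and exposure time, among 349 genes of the supplementary list with a symbol. These 15 points share arrays and differences in brightness, and r is given as a description. SLC26A6 was most like foxa1, a transcription factor (r = 0.88), hcar1-1, a hydroxycarboxylic acid receptor (0.85), atp1a1a.4 (0.83), KCNJ16 (0.80) and cyp2k16, a cytochrome P450 (0.77). Least like it were sec31a, a coat protein of secretory vesicles (-0.65), and PPIA, a cyclophilin (-0.63). Without the mean of 18 ppt at 42 h the r of the first 5 was 0.46, 0.57, 0.53, 0.69 and 0.60, and 0 of the 5 were still among the 5 most alike.

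SLC12A2 was most like PBLD (1 of 2) (r = 0.87), ppifa, a mitochondrial cyclophilin (0.87), BX004880.1 (0.86), BX005380.2 (0.85) and RNH1 (4 of 23), a ribonuclease inhibitor (0.84). Least like it were cycsb, a cytochrome c (-0.91), and ube2d1a, a ubiquitin-conjugating enzyme (-0.90). These held at 0.85 to 0.90 for the first 5 without the 18 ppt mean at 42 h. ANO10a was most like ppp3r1b, a regulatory subunit of calcineurin (0.79), nup214, a nuclear pore protein (0.74), scfd2 (0.67), tns1, a protein of focal adhesions (0.67), and cul3a, a scaffold of ubiquitin ligases (0.66). Least like it were cycsb (-0.64) and AKIP1 (-0.58). The group means of SLC12A2 and ANO10a themselves went with brightness at r = -0.55 and -0.67, and those of SLC26A6 at 0.37. Of the genes most like ANO10a, nup214, scfd2, tns1 and cul3a went with brightness at -0.84, -0.65, -0.88 and -0.85, and ppp3r1b at -0.38. The least alike, cycsb and AKIP1, had 0.54 and 0.85. The 5 genes most like SLC12A2 had -0.44 to -0.39, and those most like SLC26A6 0.37 to 0.49. The part of brightness in these likenesses was not tested.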

How the data were processed

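Single-colour Agilent arrays of 36818 probes measured gill RNA of 70 fish. The authors deposited intensity values from Feature Extraction 11.5.1.1, already background-subtracted within an array, and log2 values that the authors had quantile-normalized and centred per probe, used as an alternative only. Here the processed intensities were quantile-normalized and log2-transformed, and outlier spots were left out. The filter kept probes whose signal reached 100 on 50% of arrays or more. Dim probes of the 3 transporters, the 10 ion transport genes and the cell markers were kept as well. Probes of a listed gene were averaged within a fish, giving 14230 genes and single probes. limma 3.58.1 in R 4.3.3 fitted 16 group means with moderated tests and Benjamini-Hochberg adjustment. Exact or 100000-fold permutation tests were two-sided. The script was tested on simulated data.

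Members, lists and tests were chosen with earlier results of these data known. Named genes were the 3 transporters, 10 ion transport genes and, for each transporter, the 5 most and 2 least alike. Alternatives changed the background correction (normexp on median spot signals, offset 50), scaling, filter, block, weights, probes and test. Brightness as a covariate, leaving out dim arrays and leaving out the 18 ppt mean at 42 h were added after seeing the data. Experiment 2 was not analysed here.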

Additional observations from a re-analysis of the deposited data

Results flagged for a closer look

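Single fish stood apart in 4 of the 45 sets of levels examined, each set being the fish of 1 group for 1 gene. Chance alone marks about 1 such set in 20. All 4 were handling controls. SLC12A2 was 9.11 in 1 control fish at 18 h, where the next highest was 7.37, and 7.88 in 1 at 42 h, where the next was 7.20. SLC26A6 was 9.94 in 1 control fish at 0 h, where the next lowest was 11.35, and 12.80 in 1 at 18 h, where the next highest was 11.17.

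ANO10a in 18 ppt lay on opposite sides of the control at 2 times, with every fish below the control mean at 18 h (-0.62) and every fish above it at 42 h (0.77). The difference between these effects was not tested.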

How the results depend on the processing

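For 60 results, 30 alternatives and the leaving out of each of the 70 fish were run. The difference of SLC26A6 between 18 ppt and the control at 42 h was called under all of these that were run on it except the replicate block, and the SLC12A2 fall from 0 to 42 h over all salinities under all of them. Slide as a random block, scan day, detector setting, the letter in the control labels, the ordinary test and keeping outlier spots changed no call. Adjusted p-values stand in parentheses, F-tests have adjusted p-values alone, and the causes of changes were not tested.

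With slide as a fixed block the salinity F-tests were at 0.261 (SLC12A2) and 0.199 (SLC26A6), SLC12A2 from 0.4 to 6 ppt at 1.02 (0.156) and to 18 ppt at 0.86 (0.307). SLC26A6 was at -1.54 (0.222) in 18 ppt against the control, -1.53 (0.199) against 0.4 ppt, -2.97 (0.186) from 0 to 42 h in 18 ppt and -0.53 (0.142) over all salinities, and ANO10a from 18 to 42 h in 18 ppt at 0.86 (0.17). Signs turned for SLC26A6 in 0.4 ppt (-0.0111) and for ANO10a in 6 ppt (-0.0348) and in 12 ppt at 42 h (-0.0876). SLC12A2 in 12 ppt at 0 h was brought past the threshold (1.47, 0.0274).

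The replicate numbers in the labels showed little sign of pairing the fish. Deviations of same-numbered fish correlated at a mean of 0.00438 (0.000687 for other numbers, lowest -0.755) and 15 of 70 fish correlated best with their own number. The count that chance would give was not computed, and a low mean cannot exclude pairing within some of the numbers. With the replicate block SLC12A2 in 6 ppt from 0 to 42 h was -1.30 (0.0678), SLC26A6 in 18 ppt -1.22 (0.472) overall and -2.59 (0.145) at 42 h, and ANO10a in 6 ppt -0.0236, a turned sign. The block changed no other call.

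Signs of ANO10a also turned in 0.4 ppt with 75th percentile scaling (0.0365), no filter on dim probes (0.0674), the filter on signals well above background (0.0671) and the authors' values (0.0715), and in 6 ppt with normexp (-0.00532). The time difference of SLC26A6 over all salinities was -0.59 (0.056) with 75th percentile scaling and -0.57 (0.0812) with a signal of 100 required on every array, where its interaction passed at 0.0469. ANO10a from 18 to 42 h in 18 ppt was 0.81 (0.0778) without the filter, 0.81 (0.0671) with the filter on signals well above background and 0.69 (0.0787) with the filter on every array. Without the filter ANO10a in 6 ppt from 0 to 42 h was -0.57 (0.053).

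Array weights brought past the threshold the time and interaction F-tests of SLC26A6 (0.0285 and 0.0027) and of ANO10a (0.00179 and 0.00481). For SLC12A2 they did so in 6 ppt (0.79, 0.0338). They also did so at 0 h in 6 ppt (1.38, 0.00198) and 12 ppt (1.39, 0.00168), and between 12 and 0.4 ppt (1.02, 0.00148). Against the pre-experiment fish SLC12A2 passed at 0 h in 0.4 ppt (-1.08, 0.0135) and in the controls (-0.89, 0.0449). ANO10a passed in 12 ppt at 42 h (0.63, 0.00774) and in 6 ppt from 18 to 42 h (-0.69, 0.021). With the brightness covariate the SLC26A6 time F-test passed (0.0325), and SLC12A2 and ANO10a in 6 ppt from 0 to 42 h did not (-0.72 and -0.61). Without the dim arrays the SLC12A2 salinity F-test was at 0.0531 and its 18 to 0.4 ppt difference at 0.98 (0.188), SLC26A6 in 18 ppt at -1.43 (0.0601), its time F-test at 0.0263, ANO10a in 18 ppt at -0.0587, a turned sign, and its rise in 18 ppt at 0.85 (0.1).

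Tukey's comparison within the gene left 15 of 18 results on the same side of the threshold, and the other 3 passed (12 against 0.4 ppt for SLC12A2, and 18 against 6 and 12 ppt for SLC26A6). For SLC12A2, isotig19205 alone gave a salinity F-test of 0.0769, 1.42 (0.109) from 0.4 to 18 ppt and -1.69 (0.0533) in 12 ppt over time. Probe 20645 alone gave 0.0712, 1.45 and -1.72, and probe 20646 alone 0.083, 1.39 and -1.67. In 6 ppt over time isotig24235 alone gave -0.62, probe 26574 -0.79 and probe 26575 -0.45, none called. Of the 5 genes most like SLC12A2, 0 were kept with deviations of fish and 3 without the 18 ppt mean at 42 h, of SLC26A6 0 with Spearman's rho and 0 without that mean, and of ANO10a 1 with rho and 1 with deviations.

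Leaving out 1 fish at a time moved some results across the threshold or the sign. The F-tests ranged from 0.00886 to 0.147 (SLC26A6, time), 0.00531 to 0.157 (SLC26A6, interaction), 0.026 to 0.167 (ANO10a, time) and 0.021 to 0.157 (ANO10a, interaction). SLC12A2 ranged from 1.12 to 1.38 between 18 and 0.4 ppt, and from 0 to 42 h between -1.62 and -1.12 in 6 ppt and between -1.92 and -1.28 in 12 ppt. SLC26A6 ranged from -1.72 to -1.30 in 18 ppt, -0.236 to 0.0126 in 6 ppt, -3.90 to -2.64 from 18 to 42 h in 18 ppt (0.0504 without the 18 ppt fish at 11.58 at 18 h) and -0.82 to -0.57 from 0 to 42 h over all salinities. ANO10a ranged from -0.0877 to 0.00836 in 0.4 ppt, -0.0248 to 0.172 in 18 ppt, -1.06 to -0.80 from 0 to 42 h in 6 ppt and 0.85 to 1.44 from 18 to 42 h in 18 ppt. Some differences that were not called passed without 1 fish. Without 1 of the 18 ppt fish at 42 h, SLC26A6 between 6 and 18 ppt passed (-1.60, 0.0127). ANO10a in 18 ppt at 42 h did so too (1.00, 0.0219). ANO10a in 6 ppt from 18 to 42 h passed without either of 2 fish (0.037 and 0.0498). SLC12A2 at 0 h in 6 and in 12 ppt also each passed without either of 2 fish.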
